A study of Mus musculus and Homo sapiens with 15 samples.

Results

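The genes of glucose uptake and glycolysis were followed as 10 transcripts: Slc2a1, Hk2, Pfkl, Pfkp, Aldoa, Gapdh, Pgk1, Eno1, Pkm and Ldha. They were taken by symbol from each table, in capitals for the human one, and all 10 were found among the 52340 genes of the W/W table, the 56691 of the C57 table and the 61806 of the U937 table. The symbol Aldoa names 2 entries in both mouse tables. ENSMUSG00000030695 was used, since the other entry, ENSMUSG00000114515, held 0 to 24 counts in the W/W libraries and 0 to 2 in the C57 libraries. RNA was sequenced from 15 samples to compare tumours with and without arsenic trioxide (ATO). Of these, 9 were thymus tumours, labelled T-lymphomas, of mice homozygous for the R282W mutation of p53 (W/W mice) at day 150 after birth: 3 from mice given water, 3 from ATO-treated mice whose tumours were progressing and 3 from ATO-treated mice whose tumours were regressing. All 9 carry the mutant allele, so no comparison here is between p53 genotypes, and outcome defines the 2 ATO groups. The other samples were tumours labelled CDX, grafted in C57 mice labelled WT and given either PBS, a saline buffer (n = 2), or ATO (n = 2), and U937 cells, an established human myeloid leukaemia line, expressing p53 R282W and treated with PBS (n = 1) or ATO (n = 1). The labels give no dose, no duration of treatment and no name for the grafted cells, and leave the meaning of the replicate numbers unsaid. No label states that the samples of a group were separate animals or cultures, so p-values measure the spread between these samples, part of which may be technical.

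Glycolysis splits glucose into pyruvate in the cytosol, with a small yield of ATP. Glucose enters through transporters of the Slc2a family, is trapped by hexokinase, and is committed to the pathway by phosphofructokinase; pyruvate is then burnt in mitochondria or reduced to lactate by lactate dehydrogenase and exported. Dividing T cells and many lymphomas run this pathway at a high rate with oxygen present, and the transcription factors Myc and Hif1a are known activators of many of its genes.

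Total counts ran from 12800367 to 17550594 in the W/W libraries, from 12922147 to 15637644 in the C57 libraries and from 16454534 to 17872972 in the U937 libraries. No member had fewer than 100 counts in any library. The T-cell label was checked against Cd3e, which ran from 108 to 327 CPM (read counts scaled to a common library size) in the W/W and from 487 to 697 in the C57 libraries, and against Lck, which was present in all of them. Rag1, an enzyme of immature thymocytes, was at 0.615 to 2.29 CPM in the 3 water libraries, 258 to 1382 in the progressing and 1503 to 3388 in the regressing ones. The summed level of 10 B-cell genes was 1834 and 3542 CPM in water replicates 1 and 2, 300 in water replicate 3, and 8.12 to 226 in the ATO libraries. Beside it, 11 T-lineage genes summed to 1969, 2551 and 2225 CPM in water replicates 1, 2 and 3. They summed to 3052 to 4928 in progressing and 3885 to 6422 in regressing libraries. The B-cell sum of water replicate 2 thus lay above its T-lineage sum, and that of water replicate 1 lay near it. The summed level of 10 adipocyte genes was 6104 CPM in regressing replicate 3, 1499 in progressing replicate 2, 769 in regressing replicate 2 and 95.8 to 275 in the other 6. Ucp1, a brown fat gene, reached 1191 CPM in regressing replicate 3. The 10 thymic epithelium genes summed to 1822 to 2141 CPM in the regressing libraries, 48.6 to 110 in the progressing and 174 to 1058 in the water libraries. The 10 macrophage genes summed to 1755 to 2555 CPM in water, 340 to 1483 in progressing and 545 to 986 in regressing tumours, and the 9 fibroblast genes to 341 to 960, 802 to 1357 and 134 to 449. Mitochondrial genes took 8.83% of counts in progressing replicate 2 and 8.48% in regressing replicate 3, against 2.08% to 4.86% in the other 7. These bulk libraries cannot tell fewer cells of a type from less RNA per cell. The part of these cell types and of the mitochondrial share in the results was not tested. U937 cells held CD33 (40.9 CPM with PBS and 45.9 with ATO), SPI1 (151 and 76.0) and LYZ (1744 and 473). MPO, another gene of the myeloid list, was near 0 (0.392 and 0.851 CPM), and CD3E was at 0 and 0.182 CPM.

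Several of these genes have processed copies elsewhere in the genome, and reads from shared stretches may have been dropped or assigned elsewhere. Of the 50-base windows of the longest annotated mouse transcript, 82.5% of Gapdh were also found in 218 other genes, 72.2% of Eno1 in 9, 68.0% of Pgk1 in 5, 34.4% of Pkm in 8, 16.6% of Ldha in 14 and 13.5% of Aldoa in 6. Slc2a1, Hk2 and Pfkp shared none, and Pfkl shared 0.054%. Gapdh, usually among the most abundant transcripts of a cell, had 176 to 902 counts in the W/W and 257 to 608 in the C57 libraries, against 53872 and 62576 in U937, where 19.4% of its windows were shared. Its mouse values, and to a lesser degree those of Eno1, Pgk1 and Pkm, are therefore uncertain. Whether the counting used strand is not given in the sources used here, so Pfkp cannot be told apart from Pitrm1 over the 748 bases where they overlap on opposite strands (854 to 1736 Pitrm1 counts in the W/W libraries). Pkm shares 3887 bases with Gm49759 on its own strand (109 to 1638 counts), and Aldoa shares 3084 with Fam57b on the opposite one (0 to 282 counts).

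Promoters of 3 genes are shown because the results turn on them: Pgk1, the member that passed the test in regressing tumours, Ldha beside it, and the lactate exporter Slc16a3, the pathway gene with the largest fall there. Each is the 250 bases before the annotated start (RefSeq, GRCm38.p6, plus strand, 5′ to 3′). Capitals mark ACGTG on either strand, a form of the core to which Hif1a and its partner bind, which overlaps the CACGTG recognised by Myc. Pgk1 lies at chrX:106187100-106203699, and its promoter at chrX:106186850-106187099 holds 2 matches, starting 150 and 131 bases before the start. Ldha lies at chr7:46841475-46855627, and the first of its 2 promoter windows, chr7:46845554-46845803, lies inside the annotated gene and holds 5 matches at 3 places, because each of its 2 CACGTG hexamers counts once per strand. The Slc16a3 promoter, chr11:120948817-120949066, holds 2.
Pgk1: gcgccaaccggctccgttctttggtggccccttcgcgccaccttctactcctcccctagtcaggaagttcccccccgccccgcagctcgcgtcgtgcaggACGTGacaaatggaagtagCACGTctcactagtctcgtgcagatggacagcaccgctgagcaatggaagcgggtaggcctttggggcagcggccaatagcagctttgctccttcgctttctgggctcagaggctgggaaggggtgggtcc
Ldha: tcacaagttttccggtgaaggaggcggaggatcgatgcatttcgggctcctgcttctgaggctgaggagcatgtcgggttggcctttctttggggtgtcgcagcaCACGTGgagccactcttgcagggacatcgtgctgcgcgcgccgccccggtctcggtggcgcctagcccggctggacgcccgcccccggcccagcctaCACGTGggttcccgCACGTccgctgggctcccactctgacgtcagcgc
Slc16a3: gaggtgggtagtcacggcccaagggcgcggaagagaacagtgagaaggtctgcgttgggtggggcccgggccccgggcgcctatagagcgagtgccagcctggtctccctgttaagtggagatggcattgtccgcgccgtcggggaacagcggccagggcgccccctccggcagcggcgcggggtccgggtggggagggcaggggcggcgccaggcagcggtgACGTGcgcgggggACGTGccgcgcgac
Of all 32851 such windows of mouse genes, 16.6% held ACGTG and 6.02% held CACGTG. Over the 16 windows of the 10 members, 7 held ACGTG, belonging to Slc2a1, Hk2, Aldoa, Pkm, Pgk1 and Ldha, and Ldha alone held CACGTG. The Aldoa windows among these overlap and hold the same site, at -126 and -202, which was thus counted more than once. Genes with several starts also had more windows in which to hold a match. No match to ACGTG was found in the windows of Pfkl, Pfkp, Gapdh and Eno1, or of Ldhb. Other forms of the core were not searched, so these genes are not shown to lack one. A match is a stretch of letters and was not measured as a bound site.

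The 10 genes together held 0.426%, 0.518% and 0.455% of all counts in the water tumours and 0.311%, 0.389% and 0.325% in the progressing tumours. In the regressing tumours they held 0.135%, 0.173% and 0.481%. All 3 progressing libraries and 2 of the 3 regressing libraries were thus under every water library, and regressing replicate 3 was level with water. On the TMM scale this order did not hold for progressing replicate 2, whose summed level of the 10 genes, 4906 CPM, lay above water replicates 1 and 3 (4100 and 4150). Per exonic length, as FPKM, Pkm (362 ± 55.3, SD, n = 3) and Ldha (347 ± 148) were the highest in water tumours and did not differ beyond their spread. Aldoa followed (206 ± 25.2), under Ldha by less than the SD of Ldha. Eno1 (102 ± 28.8) and Pgk1 (62.5 ± 7.91) were next, each under the gene before it by more than the SD of either. Pfkl (18.9 ± 3.01) and Slc2a1 (14.6 ± 2.28) were lower, and Pfkp (8.95 ± 1.56), Gapdh (7.94 ± 6.18) and Hk2 (6.75 ± 2.69) could not be ordered. This order depends on the exonic lengths used. For Pfkp that length was 13401 bases, beside 4145 in its longest coding transcript, and for Pfkl 6675 beside 3730. In CPM, the water means of Pfkp and Pfkl were 132.7 and 134.5.

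**Figure D1:**
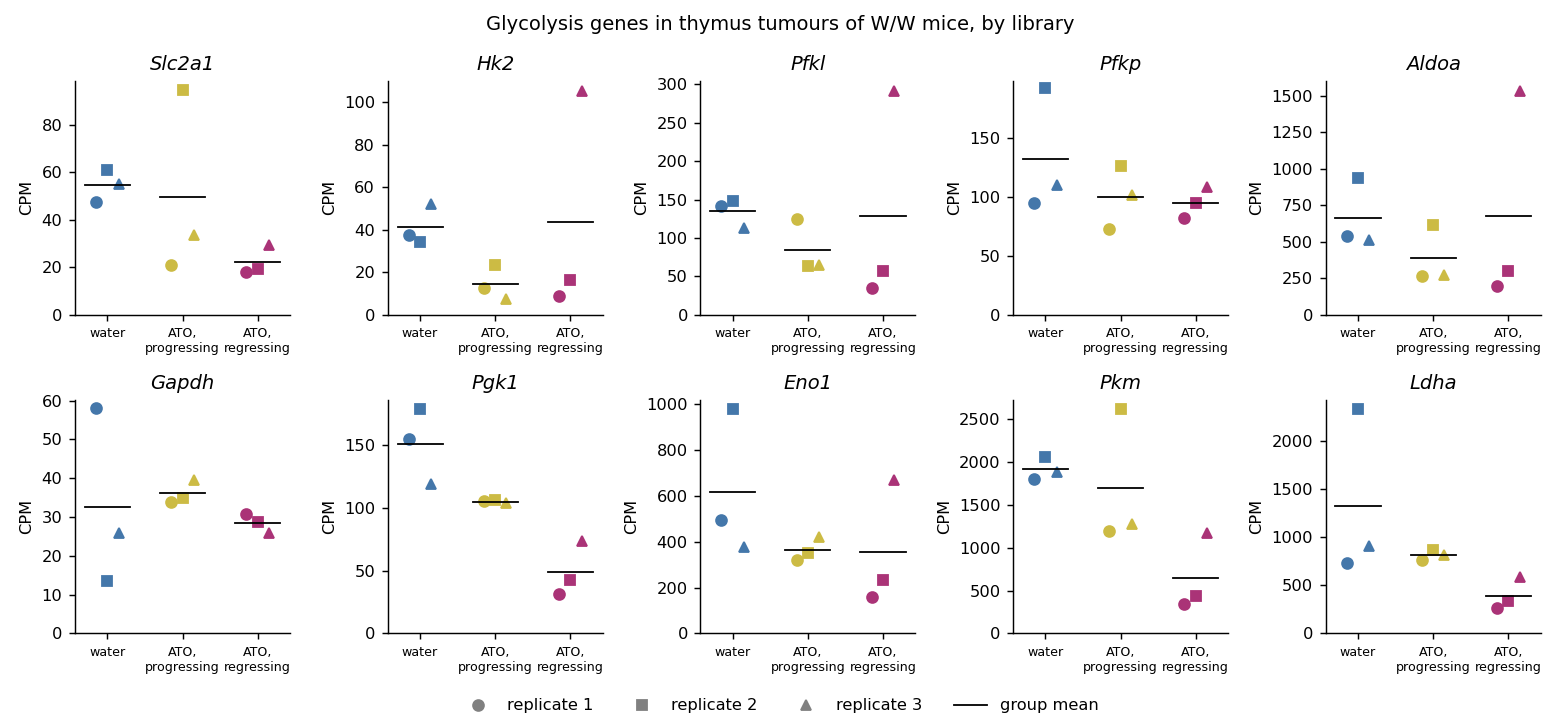
TMM-scaled CPM (linear axes from 0) of the 10 genes in each thymus tumour library, by group, with the marker shape giving the replicate number and the line the group mean. Pgk1, Pkm, Ldha and Slc2a1 were lower in every regressing library than in any water library, and regressing replicate 3 stood far above the other 2 regressing libraries for Hk2 (105 CPM), Pfkl (292) and Aldoa (1533).

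Slc2a1 encodes GLUT1, the widely expressed basal glucose transporter; its transcript was counted, and uptake itself was not measured. Slc2a1 stood at 47.6, 60.7 and 55.0 CPM in the water tumours, 21.0, 94.5 and 33.6 in the progressing and 18.03, 19.45 and 29.41 in the regressing ones. The progressing group straddled the water group because of its replicate 2, and the regressing group lay wholly under it. Slc2a1 differed by -1.29 (log2 fold change, SE 0.50) between regressing tumours and water, which did not pass edgeR's quasi-likelihood test (Benjamini-Hochberg adjusted p = 0.126), and -0.13 (SE 0.49, adjusted p = 0.890) in progressing against water. Without progressing replicate 2 the latter became -0.93 (SE 0.36, adjusted p = 0.129).

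Hexokinase 2, the inducible enzyme that phosphorylates incoming glucose, had a wide spread among the regressing tumours. Hk2 was at 37.4, 34.2 and 52.3 CPM in water, 12.4, 23.4 and 7.33 in progressing, and 8.96, 16.5 and 105 in regressing tumours. Every progressing library and 2 regressing libraries were under the lowest water library, while regressing replicate 3 was above all water libraries. The log2 fold change of Hk2 was -1.52 (SE 0.79, edgeR adjusted p = 0.237) for progressing and 0.08 (SE 0.77, adjusted p = 0.958) for regressing against water, and the latter turned to -1.60 (SE 0.56, adjusted p = 0.130) without regressing replicate 3.

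The phosphofructokinases, the committed step, were measured as the liver-type Pfkl and the platelet-type Pfkp. Pfkl stood at 142, 148 and 114 CPM in water, 124, 63.4 and 65.1 in progressing and 35.4, 57.4 and 292 in regressing tumours. Pfkp was at 95.3, 193 and 110 CPM in water, 72.9, 127 and 102 in progressing and 82.5, 94.9 and 109 in regressing tumours. Neither gene differed beyond its spread in any W/W comparison: the groups overlapped for both, and edgeR adjusted p-values lay between 0.339 (Pfkp, both ATO outcomes against water) and 0.954 (Pfkl, regressing against water).

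Aldolase A, which splits the 6-carbon sugar, followed the pattern of Hk2 and Pfkl. Aldoa was at 538, 936 and 509 CPM in water, 266, 616 and 275 in progressing and 194, 301 and 1533 in regressing tumours, so that the regressing group held both the lowest and the highest library. Aldoa differed by 0.03 on the log2 scale between regressing tumours and water (SE 0.69, adjusted p = 0.980 by edgeR), and -1.31 (SE 0.48, adjusted p = 0.144) without regressing replicate 3.

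Gapdh and Pgk1 carry out the oxidation of the triose and the first ATP-forming step. Gapdh, with its few unshared bases, stood at 58.1, 13.4 and 25.9 CPM in water, 33.8, 35.0 and 39.6 in progressing and 30.8, 28.8 and 25.9 in regressing tumours. The water libraries spanned both ATO groups, and no W/W comparison of Gapdh passed the test. Pgk1 stood at 155, 179 and 119 CPM in water, 106, 106 and 104 in progressing and 31.1, 42.6 and 73.3 in regressing tumours. The 3 groups of Pgk1 did not overlap, a share not counted over all genes. In regressing tumours Pgk1 fell by 1.62 from water (log2, SE 0.34, adjusted p = 0.0232 by edgeR's test), while its difference in progressing tumours, -0.52 (SE 0.34, adjusted p = 0.336), did not pass. The direct contrast of regressing with progressing tumours gave -1.10 (SE 0.34, adjusted p = 0.0564).

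The call of Pgk1 in regressing tumours rested on single libraries in the leave-one-out fits. The estimate was -1.41 (edgeR adjusted p = 0.0588) when water replicate 2 was left out, without regressing replicate 1 it was -1.37 (adjusted p = 0.124) and without regressing replicate 2 it was -1.52 (adjusted p = 0.138). It passed without any of the other 3 libraries of the contrast, with -1.93 (adjusted p = 0.0216) when regressing replicate 3 was left out. Over all alternative fits its adjusted p ran from 0.0024 to 0.138.

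Enolase and pyruvate kinase complete the path to pyruvate. Eno1 stood at 497, 980 and 376 CPM in water, 318, 352 and 421 in progressing and 158, 231 and 671 in regressing tumours, and the groups overlapped in every comparison. Pkm was at 1803, 2065 and 1880 CPM in water, 1197, 2619 and 1275 in progressing and 346, 440 and 1168 in regressing tumours. All 3 regressing libraries lay under all other libraries for Pkm. Pkm differed by -1.56 between regressing tumours and water (log2, SE 0.51, adjusted p = 0.0827 by edgeR), and passed without regressing replicate 3 (-2.18, SE 0.45, adjusted p = 0.0390). Over all its alternative fits the adjusted p ran from 0.0183 to 0.285.

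Lactate dehydrogenase A turns pyruvate into lactate. Ldha stood at 727, 2326 and 910 CPM in water, 765, 870 and 819 in progressing and 263, 331 and 582 in regressing tumours. Water replicate 2 was far above the rest, and the regressing libraries were under all 6 others. Ldha differed by -1.75 (SE 0.49, edgeR adjusted p = 0.0529) in regressing and by -0.69 (SE 0.47, adjusted p = 0.370) in progressing against water. Over the leave-one-out fits the regressing estimate of Ldha ran from -2.04 to -0.98. Without water replicate 1 the regressing contrast of Ldha passed (-2.04, edgeR adjusted p = 0.0433), and over its alternative fits the adjusted p ran from 0.0055 to 0.212.

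By count, 1 of the 10 members, Pgk1, fell and none rose in regressing against water, where 7.7% of the 18119 genes tested passed, 4.57% falling and 3.13% rising. Another 3 members (Slc2a1, Pkm and Ldha) had an unadjusted p under 0.05, a share not counted over all genes here or in the other comparisons. DESeq2 called 3, Pgk1, Pkm and Ldha, where it called 3157 of the 19819 genes it tested. For 4 of 10 members all regressing libraries lay under all water libraries, as they did for 20.8% of genes tested, and for none did they all lie above (19.3% of genes). The members' median log2 fold change was -0.64, beside -0.11 over all genes tested, and 8 of 10 were negative. In progressing against water 0 of 10 passed edgeR's test, where 11.9% of genes did (7.13% falling, 4.77% rising). Likewise 0 had an unadjusted p under 0.05 or passed in DESeq2, which there called 3841 of 21766 genes. Hk2 and Pgk1 were the 2 members whose progressing libraries all lay under water (14.7% of genes tested), and the members' median was -0.60 beside -0.04 over all genes. These contrasts share the water libraries, so their likeness is not independent.

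Between the outcomes, 0 of 10 members passed edgeR's test in regressing against progressing tumours, where 12.6% of genes did (6.18% falling, 6.45% rising). Of the members, 4 (Slc2a1, Pgk1, Pkm and Ldha) had an unadjusted p under 0.05, with log2 fold changes from -1.38 for Pkm to -1.06 for Ldha. DESeq2 called 1, Pgk1, where it called 4069 of 21766 genes. For 4 members, Gapdh, Pgk1, Pkm and Ldha, every regressing library was under every progressing one, which held for 20.6% of genes, and for none was every one above (21.4% of genes). With both ATO outcomes set against water, 1 of 10 members passed, Pgk1 at -1.07 (log2, SE 0.28, adjusted p = 0.0355 by edgeR's test), where 10.9% of genes passed, 7.3% falling and 3.57% rising. Pgk1 was also the 1 member with all 6 ATO libraries under water (6.17% of genes), and none had all 6 above (6.12%). That call held in 1 of 9 leave-one-out fits, the one without regressing replicate 3 (adjusted p = 0.0236). In the other 8, each without 1 of the 3 water, 3 progressing or first 2 regressing libraries, the log2 fold change of Pgk1 ran from -1.22 to -0.89, with adjusted p-values of 0.0502 to 0.107. Over all alternative fits it held in 6 of 15.

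Regressing replicate 3 set much of this spread. Leaving it out, the members' median log2 fold change in regressing against water went from -0.64 to -1.50, with the median of all genes at -0.11 in both fits. In that fit 2 of 10 members fell, Pgk1 and Pkm, where 1.09% of 19163 genes tested fell. Eno1 (-1.56, SE 0.46) and Pfkl (-1.44, SE 0.43), both with an edgeR adjusted p of 0.0916, Ldha (-2.04, adjusted p = 0.0687) and Slc2a1 (-1.43, adjusted p = 0.167) did not pass. The same library had the adipocyte sum of 6104 CPM given above, with Slc2a4, the insulin-regulated transporter of fat and muscle, at 106 CPM against 11.1 and 24.2 in the other 2 regressing libraries. The 2 libraries with the highest adipocyte sums, progressing replicate 2 and regressing replicate 3, were also left out together, a choice made after those sums were seen. In that fit 5 of 10 members fell with both ATO outcomes against water (Slc2a1, Hk2, Aldoa, Pgk1 and Pkm), where 4.76% of 18877 genes fell. These were also the ATO libraries with the highest summed level of the 10 members (4906 and 4589 CPM, against 1168 to 3141 in the other ATO libraries). Leaving out 1 or both therefore lowers the members by construction, and these counts are no separate support for a fall. The part of adipose tissue in these values was not tested.

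**Figure D2:**
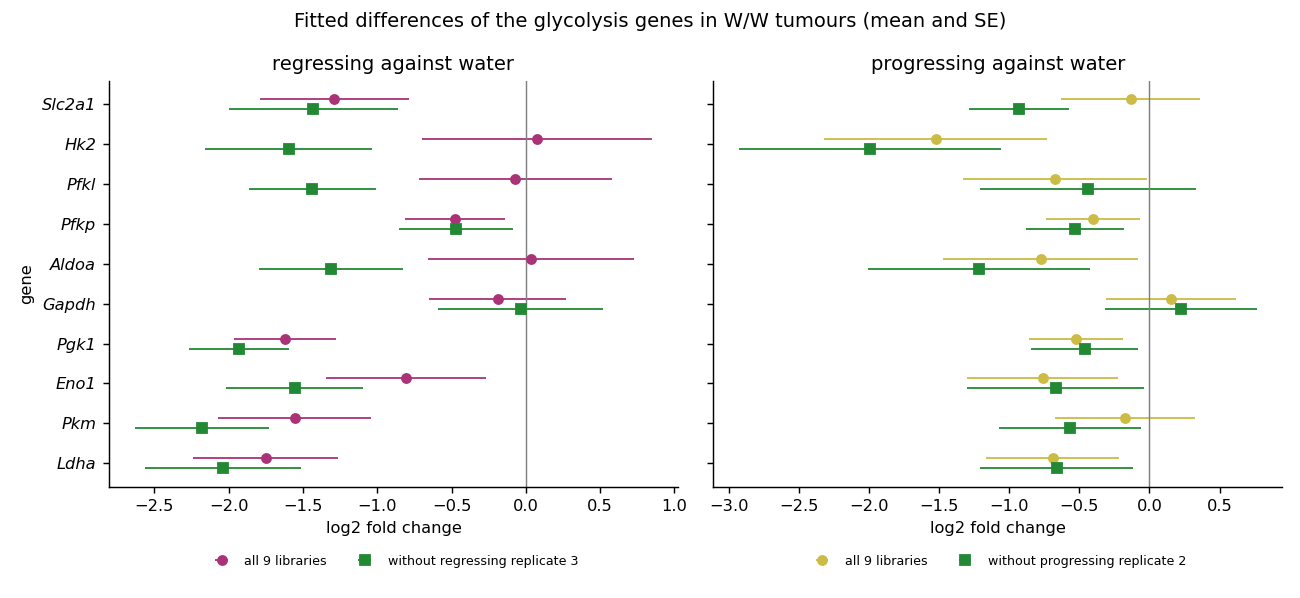
Log2 fold change (points) and SE (bars) of each gene in regressing and in progressing tumours against water, fitted with all libraries and without the library of that ATO group with the highest adipocyte sum. Without regressing replicate 3 the estimates of Hk2, Pfkl and Aldoa moved from near 0 to between -1.60 and -1.31.

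The rest of the pathway was read from 68 other genes in 6 lists: other glycolytic enzymes and transporters, control of glycolysis and lactate transport, gluconeogenesis, the pentose phosphate path, hypoxia targets, and regulators. In regressing against water 3 of 64 tested genes rose and 6 fell, in progressing against water 5 rose and 5 fell, and in regressing against progressing 0 rose and 3 fell, where 7.7%, 11.9% and 12.6% of all genes passed. The medians of these 64 genes, -0.08, -0.04 and -0.01, were near those of all genes tested, -0.11, -0.04 and -0.07.

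Of the genes that handle lactate, Slc16a3 and Ldhb passed the test, while Slc16a1, the widely expressed lactate transporter MCT1, did not (0.18, SE 0.56, edgeR adjusted p = 0.860 in regressing and 0.74, SE 0.56, adjusted p = 0.421 in progressing tumours against water), nor did its chaperone Bsg. Slc16a3, the lactate exporter MCT4 that is typical of highly glycolytic cells, stood at 53.4, 80.6 and 51.6 CPM in water, 28.1, 14.01 and 12.53 in progressing and 3.27, 2.54 and 4.01 in regressing tumours, with no overlap among the 3 groups (a share not counted over all genes). Against water it fell by 4.24 in regressing (log2, SE 0.46, adjusted p = 0.00255 by edgeR) and by 1.76 in progressing tumours (SE 0.41, adjusted p = 0.0228), and by 2.47 (SE 0.43, adjusted p = 0.0124) in regressing against progressing. The first of these passed in all 13 alternative fits. The second did not pass when water replicate 2 (adjusted p = 0.0520), progressing replicate 2 (0.0623) or progressing replicate 3 (0.0805) was left out, and passed in 8 of 13 alternative fits in all (adjusted p up to 0.0813). The third was lost without regressing replicate 1 or 2 (0.0618 and 0.0565), and passed in 10 of 13.

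Ldhb, the lactate dehydrogenase subunit that favours the use of lactate, stood at 10.7, 18.1 and 43.5 CPM in water, 333, 299 and 350 in progressing and 220, 265 and 263 in regressing tumours. Every ATO library was above every water library. Ldhb rose by 3.76 (SE 0.49, edgeR adjusted p = 0.00226) in progressing and by 3.37 (SE 0.48, adjusted p = 0.00713) in regressing tumours against water, and passed in all 13 alternative fits of each. Of its windows, 27.0% are shared with 1 other gene. The groups with high Ldhb were also those with high Rag1 and with low summed B-cell genes, and the part of these cells in the difference was not tested.

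Among the other transporters and enzymes, Slc2a3, the high-affinity neuronal and lymphocyte transporter GLUT3, stood at 80.7, 64.6 and 59.2 CPM in water, 12.8, 34.2 and 23.7 in progressing and 25.8, 25.9 and 23.2 in regressing tumours. It fell by 1.53 (SE 0.37, edgeR adjusted p = 0.0266) in progressing, a call lost without water replicate 1 (adjusted p = 0.0748) or progressing replicate 3 (0.0808) and held in 10 of 13 alternative fits. It fell by 1.45 (SE 0.37, adjusted p = 0.0425) in regressing tumours, a call that no fit without 1 of the 6 libraries kept (adjusted p = 0.0592 to 0.176) and that held in 4 of 13 alternative fits. Tpi1, triose phosphate isomerase, stood at 465, 964 and 399 CPM in water and 55.3, 89.5 and 271 in regressing tumours and fell by 2.14 (SE 0.58, adjusted p = 0.0499), which held in 1 of 6 leave-one-out fits, the one without regressing replicate 3 (range over these fits 0.0207 to 0.206), and in 6 of 13 alternative fits.

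Pfkm, the muscle-type phosphofructokinase, went another way from Pfkl and Pfkp. It stood at 31.2, 33.6 and 19.6 CPM in water, 59.6, 103 and 81.6 in progressing and 29.5, 33.9 and 41.2 in regressing tumours. Pfkm rose by 1.54 (SE 0.34, edgeR adjusted p = 0.0180) in progressing against water, and fell by 1.23 (SE 0.33, adjusted p = 0.0388) in regressing against progressing. The first was lost without water replicate 3 (adjusted p = 0.0597) or progressing replicate 3 (0.0525) and held in 10 of 13 alternative fits. The second was kept in 1 of 6 leave-one-out fits, the one without progressing replicate 1 (adjusted p over these fits 0.0346 to 0.166), and in 5 of 13 alternative fits.

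Of the regulators, Myc stood at 199, 995 and 170 CPM in water, 70.7, 87.7 and 35.2 in progressing and 32.9, 36.8 and 64.5 in regressing tumours. Myc fell by 3.35 (SE 0.70, edgeR adjusted p = 0.0228) in regressing and by 2.82 (SE 0.68, adjusted p = 0.0262) in progressing tumours. The size of the fall varied over the leave-one-out fits. It ran from -3.74 to -1.97 in regressing, -3.22 to -1.51 in progressing and -3.48 to -1.74 for both ATO outcomes against water. Each call of Myc was lost without any 1 of the 3 libraries of its ATO group (adjusted p = 0.0515 to 0.124 for regressing and 0.0526 to 0.0948 for progressing), and they held in 9 and 8 of 13 alternative fits, while both ATO outcomes against water gave a fall of 3.08 (SE 0.54, adjusted p = 0.00817) that passed in all 15 alternative fits. Hif1a, by contrast, ran from 102 to 259 CPM in water and from 143 to 192 in the ATO libraries, with adjusted p-values of 0.823 to 0.944 over the 4 W/W comparisons.

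Among control and branch genes, Pdk3, a kinase that inhibits pyruvate dehydrogenase in the mitochondria, stood at 61.5, 82.5 and 84.1 CPM in water and 20.1, 23.1 and 24.6 in regressing tumours. It fell by 1.75 (SE 0.31, edgeR adjusted p = 0.0140), a call lost without regressing replicate 1 or 2 (adjusted p = 0.0903 and 0.0948). Egln3, an oxygen-sensing hydroxylase induced by Hif1a, stood at 105, 348 and 212 CPM in progressing tumours against 56.4, 21.1 and 71.2 in water and 24.3, 21.6 and 27.4 in regressing tumours. Egln3 rose by 2.16 (SE 0.51, adjusted p = 0.0232) in progressing against water, a call that ended when water replicate 1 (0.0556), progressing replicate 2 (0.0572) or progressing replicate 3 (0.0593) was left out and that held in 8 of 13 alternative fits (adjusted p up to 0.0840). It fell by 3.18 (SE 0.53, adjusted p = 0.0110) in regressing against progressing, lost without regressing replicate 1 (0.0547) and held in 11 of 13 (up to 0.0737).

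The remaining named genes belong mostly to glucose synthesis. Pck2 fell by 2.10 (SE 0.50, edgeR adjusted p = 0.0234) in progressing tumours, lost without water replicate 2 (adjusted p = 0.0530) and held in 10 of 13 alternative fits (up to 0.0684). Fbp1 rose by 5.11 (SE 1.04, adjusted p = 0.0132) from 0, 1 and 7 counts in water to 150, 51 and 71, passing in all 13 alternative fits. G6pc3 fell by 1.79 (SE 0.37, adjusted p = 0.0219) in regressing and by 1.28 (SE 0.36, adjusted p = 0.0454) in progressing tumours. The first was lost without water replicate 2, regressing replicate 1 or regressing replicate 2 (0.0521, 0.125 and 0.133), and the second in every fit without 1 of its 6 libraries (0.0745 to 0.104), holding in 2 of 13 alternative fits. Kdm3a, a hypoxia target, rose by 1.40 (SE 0.34, adjusted p = 0.0267) in progressing tumours, lost without water replicate 3 (0.0618) or progressing replicate 2 (0.0560) and held in 9 of 13 alternative fits (up to 0.0691). Slc2a4 rose by 3.68 (SE 0.94, adjusted p = 0.0415) and Pck1 by 6.51 (SE 1.67, adjusted p = 0.0426) in regressing tumours, both highest in regressing replicate 3. Neither kept its call in any fit without 1 of its 6 libraries (Slc2a4 0.0684 to 0.117, Pck1 0.0678 to 0.119), and each held in 6 of 13 alternative fits. Of the other glycolytic enzymes named throughout, Gpi1, Pgam1 and Hk1 did not pass edgeR's test in a W/W comparison as reported here; among the alternative fits Pgam1 passed in 2 of 15 for both outcomes against water (lowest adjusted p 0.0215). Hk1, the constitutive hexokinase, stood at 67.8 to 74.5 CPM in water and 50.8 to 86.9 in progressing tumours.

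The balance between isozymes was read from FPKM within each library, a description chosen after the values were seen. Each share depends on the exonic lengths used. Ldha made up 97.0%, 98.4% and 90.8% of the summed Ldha and Ldhb signal in water tumours. It made up 52.1%, 58.0% and 52.6% in progressing and 36.2%, 37.2% and 51.3% in regressing tumours, so no ATO library reached the water range. Hk2 held 38.1%, 28.9% and 48.6% of the summed Hk1, Hk2 and Hk3 signal in water, 14.9%, 30.2% and 14.3% in progressing and 12.2%, 22.7% and 64.3% in regressing tumours. Pfkm held 18.9% to 24.8% of the phosphofructokinase signal in water and 42.6% to 62.0% in progressing tumours. In the C57 grafts the Ldha share was 69.1% and 71.8% with PBS and 72.2% and 75.5% with ATO, between the shares of the water and the progressing W/W tumours.

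**Figure D3:**
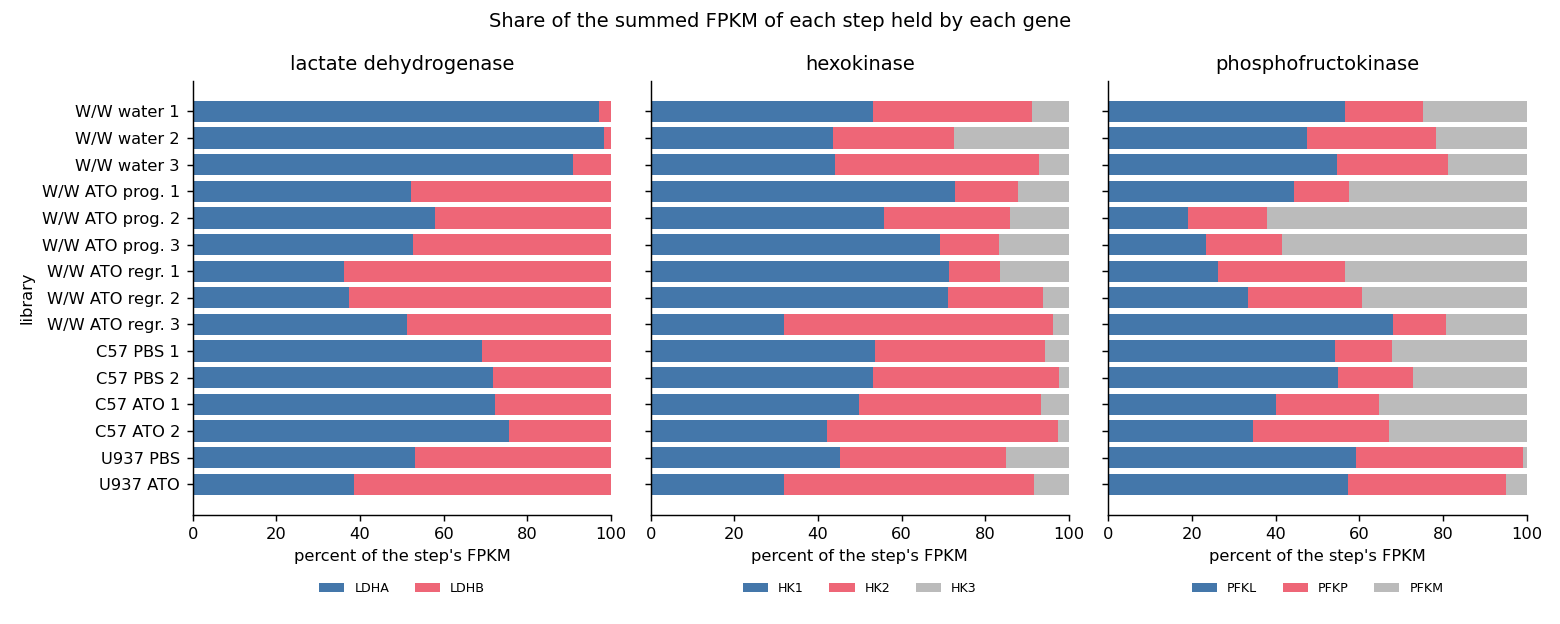
Percent of the summed FPKM of lactate dehydrogenase, hexokinase and phosphofructokinase held by each gene, as stacked bars with 1 bar per library (human symbols stand for the mouse genes as well). The LDHA part fills 90.8% to 98.4% of the bar in the 3 water tumours and 36.2% to 58.0% in the 6 tumours of ATO-treated W/W mice.

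In the C57 grafts the members differed in both directions. With ATO, all libraries were above all PBS libraries for Hk2, Pfkp and Gapdh and under them for Pfkl, Pgk1 and Ldha, and the other 4 members overlapped. Over all 15468 genes tested such gaps were found upwards for 31.6% and downwards for 30.1%. The members' median log2 fold change was 0.04, the same as over all genes tested.

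Pfkp was the member that passed, 1 of 10, where 13.9% of genes passed, 7.37% rising and 6.57% falling. Pfkp stood at 103 and 119 CPM with PBS and 161 and 256 with ATO, a log2 rise of 0.91 (SE 0.24, adjusted p = 0.0304 by edgeR). The call of Pfkp was lost without PBS replicate 1 (0.80, adjusted p = 0.146) or ATO replicate 2 (0.52, adjusted p = 0.178), and over its alternative fits the adjusted p ran from 1.54e-04 to 0.178. Another 4 members had an unadjusted p under 0.05: Hk2, Pfkl, Gapdh and Pgk1. DESeq2 called 4, Pfkp, Gapdh, Pfkl and Pgk1, where it called 2677 of 14512 genes.

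Pgk1 stood at 188 and 171 CPM with PBS and 111 and 120 with ATO, a difference of -0.64 (SE 0.19, edgeR adjusted p = 0.0504), which missed the threshold. Hk2 was at 28.4 and 31.5 CPM with PBS and 36.9 and 67.5 with ATO (0.81, SE 0.29, adjusted p = 0.0780). Gapdh was at 19.6 and 17.2 CPM with PBS and 44.7 and 25.5 with ATO (0.93, SE 0.30, adjusted p = 0.0611). ATO replicate 2 was the higher ATO library for Hk2 and Pfkp and the lower one for Gapdh. Pfkl was at 205 and 182 CPM with PBS and 130 and 135 with ATO (-0.54, SE 0.19, adjusted p = 0.0801). For Pfkl the 2 libraries of each group lay close together, far from the other group.

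Slc2a1 was at 33.0 and 35.0 CPM with PBS and 31.6 and 69.4 with ATO, so that 1 ATO library was level with PBS and the other was well above it. Without ATO replicate 1, Slc2a1 passed (1.02, edgeR adjusted p = 0.00697), as did Hk2 (1.16, adjusted p = 0.0019), and without ATO replicate 2 Gapdh passed (1.26, adjusted p = 0.00239). Over the alternative fits the adjusted p ran from 0.00697 to 0.831 for Slc2a1 and from 0.0019 to 0.571 for Hk2. Aldoa (455 and 432 with PBS, 390 and 574 with ATO), Eno1 (716 and 517, then 405 and 526) and Pkm (2576 and 2184, then 2146 and 2476) overlapped between the groups in CPM. Ldha was at 1719 and 1417 CPM with PBS and 1053 and 1330 with ATO (-0.39, SE 0.22, adjusted p = 0.245).

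Of 58 other pathway genes tested in the C57 grafts, 4 rose and 3 fell, near the share of all genes (7.37% rising, 6.57% falling). The falls included Pgls, an enzyme of the pentose phosphate path, from 226 and 180 CPM to 83.2 and 53.4 (-1.57, SE 0.25, edgeR adjusted p = 0.00629, passing in all 10 alternative fits). Taldo1, of the same path, fell from 259 and 207 to 115 and 118 (-0.997, SE 0.20, adjusted p = 0.0137), lost without PBS replicate 1 (adjusted p = 0.0741). Vhl, which marks Hif1a for destruction, fell by 0.75 (SE 0.22, adjusted p = 0.0446). Vegfa, the vessel growth factor, rose by 1.06 (SE 0.25, adjusted p = 0.0225), lost without PBS replicate 1 (0.163). Epas1 (1.03, adjusted p = 0.0339), P4ha2 (1.30, adjusted p = 0.0494) and Pdk4 (1.94, adjusted p = 0.0490) also rose. Each of Vhl, Epas1, P4ha2 and Pdk4 was kept in 1 of 4 leave-one-out fits: Vhl and Pdk4 without ATO replicate 2, Epas1 and P4ha2 without ATO replicate 1, with adjusted p-values up to 0.196, 0.272, 0.170 and 0.271 in the others. Of 10 alternative fits they held in 5, 4, 6 and 5.

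Beside these values, the summed level of 12 skeletal muscle genes was 271 and 36.5 CPM with PBS and 387 and 411 with ATO, and that of 9 fibroblast genes 509 and 257 against 659 and 1694. The 10 macrophage genes summed to 924 and 691 CPM with PBS and 411 and 369 with ATO, and the 11 T-lineage genes to 9206 and 7581 against 6200 and 4515. Mitochondrial genes took 0.520% and 1.02% of counts with PBS and 5.98% and 4.03% with ATO. The part of these values in the C57 results was not tested. Ldhb stood at 365 and 264 CPM with PBS and 192 and 205 with ATO (-0.66, SE 0.22, edgeR adjusted p = 0.0603), and Myc at 289 and 216 against 280 and 324. Gpi1, Tpi1, Pgam1, Hk1, Slc2a3 and Hif1a did not pass edgeR's test there. Of 10 alternative fits Pgam1 passed in 3 (adjusted p 0.00383 to 0.424), Slc2a3 in 2 (1.56e-04 to 0.957) and Tpi1 in 1, without ATO replicate 2 (0.0463).

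**Figure D4:**
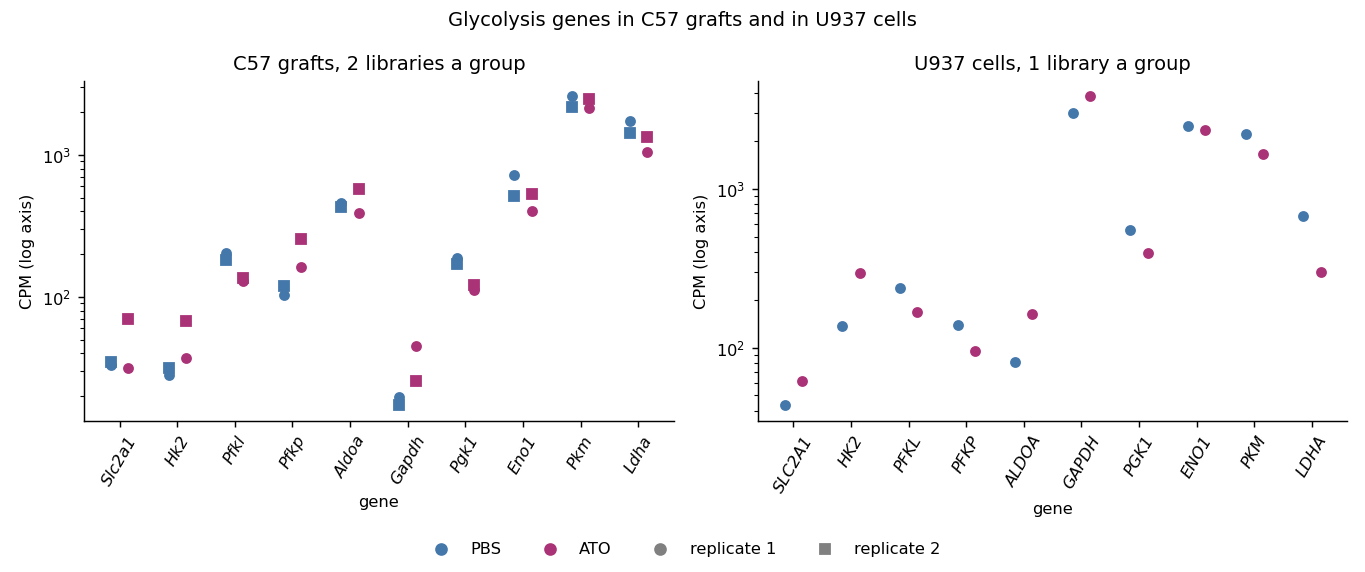
CPM (log axes) of the 10 genes in the grafts (TMM-scaled, circles replicate 1, squares replicate 2) and in U937 cells (1 library per group), PBS and ATO side by side. In the grafts Pfkp stood at 161 and 256 CPM with ATO above 103 and 119 with PBS, and in U937 cells HK2 and LDHA differed in opposite directions.

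In U937 cells SLC2A1, HK2, ALDOA and GAPDH were higher and the other 6 members lower in the ATO library. With 1 library per group there is no replicate check and no test, and the intervals below (exact binomial, 95%) cover counting error only. SLC2A1 was at 43.4 CPM with PBS and 61.8 with ATO, a ratio of 1.42 (1.30 to 1.57). HK2 was at 137 and 293 CPM, a ratio of 2.14 (2.04 to 2.25). PFKL (237 and 167 CPM, ratio 0.704) and PFKP (138 and 95.6 CPM, ratio 0.693) were both lower with ATO.

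ALDOA was at 81.3 CPM with PBS and 162 with ATO, a ratio of 2.00 (1.87 to 2.13), but 89.5% of its windows are shared with other genes, among them one that overlaps it on the same strand. GAPDH was at 3014 and 3803 CPM (ratio 1.26). PGK1 was at 551 and 396 (ratio 0.719; ATP7A overlaps it on the same strand with 197 and 298 counts as the lowest and highest), ENO1 at 2496 and 2339 (ratio 0.937) and PKM at 2202 and 1648 (ratio 0.748). LDHA had the largest difference of the 10, 668 CPM with PBS and 298 with ATO, a ratio of 0.445 (0.431 to 0.460).

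On the log2 scale with a pseudocount of 1 CPM, HK2 (1.09) was the 1 member of 10 at or above 1, and LDHA (-1.16) the 1 at or under -1, with ALDOA just inside at 0.99. Scaled by TMM factors HK2 came to 0.88, inside the threshold. Of the 9909 genes with at least 10 CPM in a library, 11.8% lay at or above 1 and 10.2% at or under -1, so the members' counts were near the share of all genes. With a minimum of 1 CPM the shares were 16.1% and 8.06% of 14652 genes. Together the 10 genes held 0.957% of all counts with PBS and 0.926% with ATO. LDHA made up 53.1% of the lactate dehydrogenase FPKM with PBS and 38.5% with ATO, with LDHB at 292 and 234 CPM.

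Among the other pathway genes in U937 cells with at least 10 CPM, 10 of 44 were at or above 1 and 3 at or under -1. MYC was at 195 CPM with PBS and 9.79 with ATO (log2 ratio -4.19), the largest difference of the lists. SLC2A3 was at 29.7 and 105 CPM (1.79), so that the share of SLC2A1 in the summed FPKM of SLC2A1, SLC2A3 and SLC2A4 went from 56.5% to 35.0%. SLC2A3 shares 22.9% of its windows with other genes.

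Hypoxia targets were the list with the most members past the threshold: 5 of 9 were at or above 1, namely DDIT4 (3.73), NDRG1 (2.05), VEGFA (1.99), BNIP3L (1.62) and KDM3A (1.52), and ERO1A (-1.56) was under -1. Over all genes 11.8% were at or above 1 and 10.2% at or under -1. Their regulators HIF1A (91.1 and 187 CPM, 1.03) and EPAS1 (24.5 and 150 CPM, 2.57) were higher with ATO. PFKM stood at 3.36 and 11.97 CPM (1.57). HK1 (0.00), GPI (-0.16), PGAM1 (-0.38) and TPI1 (-0.70) lay inside the threshold. Over the same pair of libraries the summed level of 15 proliferation genes was 3955 CPM with PBS and 1587 with ATO, and that of 12 myeloid line genes 3022 and 1078. Their part in the pathway values was not tested.

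By edgeR's test as reported here, no member passed in both the W/W tumours and the grafts, while DESeq2 called Pgk1 in both. The values of the 3 systems stand in separately scaled tables, so the levels were not tested against each other. Pgk1 was lower with ATO in all of them: by 1.62 in regressing and 0.52 in progressing W/W tumours, 0.64 in the grafts and 0.47 in U937 cells on the log2 scale, of which the first passed edgeR's test as reported here. Ldha was lower in each as well, by 1.75, 0.69, 0.39 and 1.16, with no call by edgeR's test as reported here and a call by DESeq2 in regressing tumours. Pkm, Eno1 and Pfkl were also lower in each, with values nearest 0 of -0.04 (Pkm, grafts), -0.09 (Eno1, U937 cells) and -0.07 (Pfkl, regressing tumours). The share of all genes lower in each of these comparisons was not counted. Some of these signs turned when a library was left out. In progressing tumours Ldha then came up to 0.0183 and Pkm up to 0.025. Pfkl came up to 0.38 in regressing tumours, and Pkm up to 0.0717 in the grafts. Hk2 differed in sign, at 0.08 in regressing and -1.52 in progressing W/W tumours, 0.81 in the grafts and 1.09 in U937 cells. Slc2a1, Pfkp, Aldoa and Gapdh differed in sign as well.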

How the data were processed

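RNA sequencing of 15 samples was read from 3 deposited tables, one per system, with the groups taken from the sample labels. Each table holds raw counts and FPKM for every gene, as the authors deposited them and per the file headers. FastQC 0.10.1, cutadapt 1.9.1 and HISAT2 2.0.1 are named in the submitters' processing notes, with GRCm38 (mm10) as build. The counting program, use of strand and annotation release are not given in the sources used here, and the C57 and U937 coordinates are not those of GRCm38. Per the labels, RNA came from TRIzol extraction and SMARTer mRNA libraries, and the same text describes cell culture that does not match tissue.

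The test on counts was that of edgeR 4.0.16, run in R 4.3.3 (filterByExpr, TMM, quasi-likelihood test, Benjamini-Hochberg adjustment over all genes tested, threshold 0.05), with the 9 W/W libraries in one model of 3 groups and the 4 C57 libraries in another. SE is the log2 fold change over the square root of F. CPM uses TMM-scaled library sizes in the mouse tables and library totals in U937. The deposited FPKM served only to compare genes within a library, and in the W/W table they rest on totals 0.106% to 2.33% above the summed counts. U937, with 1 library per group, was described by CPM ratios.

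The members and lists were chosen with earlier results of these data known. Named are all members, at most 10 pathway genes past the threshold per comparison, and Gpi1, Tpi1, Pgam1, Slc2a3, Hk1, Ldhb, Hif1a and Myc. For the contrast of both outcomes with water, the genes the separate contrasts already describe are not repeated. The script was tested on simulated data. Alternatives were RLE and library-size scaling, no filter, DESeq2 1.42.0, only the groups compared, a replicate block, and leaving out libraries. With 1 library left in an arm, it is assumed to vary like the rest. Shared windows were counted on GENCODE vM21 and v44 transcripts.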

Additional observations from a re-analysis of the deposited data

Results flagged for a closer look

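Ldhb rose in all 6 tumours of ATO-treated W/W mice, by 3.57 on the log2 scale (both outcomes against water), and was lower in both ATO grafts than in both PBS grafts (-0.66). Pck2 (-1.82 in W/W, 0.88 in the grafts) and Eno3 (-1.09 in W/W, 0.77 in the grafts) went the other way round. By edgeR's test the graft values did not pass (adjusted p = 0.0603 for Ldhb, 0.196 for Pck2 and 0.0588 for Eno3; over their alternative fits 0.0149 to 0.406, 0.0788 to 0.584 and 0.0296 to 0.226). The W/W call of Pck2 was lost without water replicate 2, regressing replicate 1 or regressing replicate 2, and that of Eno3 was kept in 2 of 9 leave-one-out fits, without progressing replicate 1 or 2. In each case every library of a system lay on one side of its controls, as 31.6% of graft genes did upwards and 30.1% downwards, but the difference between the systems was not tested, as the tables were scaled separately. Between regressing and progressing tumours, whose contrast is the test of the difference between outcomes, Slc16a3 (-2.47), Egln3 (-3.18) and Pfkm (-1.23) differed by edgeR's test.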

How the results depend on the processing

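The number of members passing in regressing against water, 1, became 2 with RLE or library-size scaling, with only the groups compared, and without progressing replicate 2 and regressing replicate 3 together, and 3 with no filter or DESeq2; leaving out 1 library gave 0 to 2. In progressing against water 0 became 1 with no filter and 1 without that pair of libraries, and stayed 0 to 0 without 1 library. In regressing against progressing 0 became 2 with no filter and 1 with DESeq2, and 0 to 1 without 1 library. For both outcomes against water 1 became 2 with no filter or DESeq2, 0 with a replicate block, 5 without the pair, and 0 to 1 without 1 library. In the grafts 1 became 3 with library-size scaling, 4 with no filter or DESeq2, and 0 to 3 without 1 library. In U937 cells the 2 members past the threshold became 1 with TMM factors.

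Signs turned for the following values, none of which passed a test with a turned sign. In regressing against water Hk2 came to -0.41 with the replicate block, -1.60 without the pair and -1.60 to 0.57 without 1 library; Pfkl to 0.10 with library-size scaling, 0.0277 with no filter, and -1.44 to 0.38; Aldoa to -0.30 with the block, -1.31 without the pair, and -1.31 to 0.48; Gapdh to -0.49 to 0.54. In progressing against water leaving out 1 library gave -0.93 to 0.24 for Slc2a1, -0.21 to 0.87 for Gapdh, -0.57 to 0.025 for Pkm and -0.99 to 0.0183 for Ldha. In regressing against progressing Hk2 ran from -0.0903 to 2.16. Pfkl came to -0.997 without the pair and -0.80 to 1.06. Pfkp came to 0.15 with library-size scaling, 0.024 with no filter, 0.06 without the pair and -0.26 to 0.16. Aldoa came to -0.10 without the pair and -0.55 to 1.34, and Eno1 to 0.11 with library-size scaling, 0.0412 with no filter and -0.83 to 0.32. Without the pair Eno1 kept its sign, at -0.89. For both outcomes Aldoa ran from -1.03 to 0.0024 without 1 library, and without the pair it kept its sign, at -1.26. Gapdh came to 0.0109 with library-size scaling, 0.025 with no filter, 0.15 with the block, 0.09 without the pair and -0.35 to 0.70. In the grafts Slc2a1 ran from -0.12 to 1.02, Aldoa from -0.20 to 0.36, and Pkm came to 0.16 with library-size scaling and -0.18 to 0.0717. Except where libraries were left out, the cause was not tested.

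Deviations of same-numbered W/W libraries correlated at -0.124 to 0.136, so the numbers were not taken as pairs. With the replicate block 956 genes passed in regressing against water, 1405 in progressing against water, 1597 between outcomes and 1230 for both, against 1396, 2157, 2289 and 1968. In the grafts the same-numbered libraries correlated at -0.13 and 1350 genes passed with the block, against 2157; the crossed pairing, chosen after seeing the data, gave 3298 genes and 4 members. With no filter 2689, 3594, 3621 and 3273 genes passed in the W/W contrasts and 3274 in the grafts; DESeq2 gave 3157, 3841, 4069 and 3371. With only the groups compared 882 passed in progressing against water. Leaving out 1 library gave 60 to 1190 genes in regressing against water, 907 to 2557 in progressing against water, 177 to 2000 between outcomes, 656 to 2099 for both and 685 to 2420 in the grafts. Library-size scaling moved the median of all genes in regressing against water from -0.11 to 0.09, with 645 higher and 647 lower calls in place of 568 and 828, and in the grafts from 0.04 to 0.23, with 1800 and 520 in place of 1140 and 1017. Between outcomes it moved from -0.07 to 0.13, and both outcomes from -0.11 to 0.01. The lowest counts of Hk2 and Gapdh in a W/W library were 100 and 176, and whether depth limits their results was not tested.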
